A study of Mus musculus with 2 samples.

Results

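Forkhead proteins are transcription factors that share a winged-helix DNA-binding domain, and 10 of their genes were examined here in regulatory T cells (Treg cells) of the mouse colon. They were looked up by symbol: Foxp3, Foxp1, Foxp4, Foxo1, Foxo3, Foxo4, Foxk1, Foxk2, Foxj3 and Foxn3. This list was written with earlier results of these data known, and it leaves out other forkhead genes. All 10 were found among the 55246 loci of the deposited table, which holds 44 forkhead genes in all. The study profiled RNA from Treg cells of the colon lamina propria, the connective tissue under the gut epithelium, of female mice. One group was wild type (WT) and the other carried a Foxp3 allele without exon 2 (Exon2KO), with 1 library in each. The labels used here give no strain, age or treatment, and do not say how the cells were sorted or whether mice were pooled. With 1 library per genotype the variation among samples is unknown, and no difference has a replicate check. Every interval below therefore covers counting error in these 2 libraries only, and read counts without molecular identifiers are not counts of independent molecules.

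Foxp3 defines the Treg lineage: it is induced in the thymus or in the periphery and, together with partner proteins, holds the suppressive programme in place. Foxo proteins act upstream of it, since Foxo1 and Foxo3 bind the Foxp3 locus, and they are themselves driven out of the nucleus when the kinase AKT phosphorylates them downstream of the T cell receptor. Foxp1 and Foxp4 are paralogs of Foxp3 that can dimerise with one another. Exon 2 of Foxp3 encodes part of the N-terminal repressor region, including residues through which the protein contacts the nuclear receptor RORα, and it lies outside the forkhead domain.

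The deleted exon is shown here because it is the 1 designed difference between the genotypes. The labels give no coordinates for the deletion, so exon 2 was taken from the GENCODE M21 transcript Foxp3-201, whose exon 1 holds the start codon. On GRCm38 it lies at chrX:7587074-7587178 on the plus strand. In the sequence below, read 5′ to 3′ from that transcript, exon 2 is in capitals, with 30 bases of exon 1 before it and 30 bases of exon 3 after it. The shorter sequence is exon 1 joined to exon 3, with the last base of exon 1 and the first base of exon 3 in capitals.
Foxp3 exons 1 to 3: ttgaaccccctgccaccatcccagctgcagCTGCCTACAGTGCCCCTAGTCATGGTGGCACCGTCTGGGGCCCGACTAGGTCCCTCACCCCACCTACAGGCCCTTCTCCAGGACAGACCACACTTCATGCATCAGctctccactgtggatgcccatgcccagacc
Exon 1 joined to exon 3: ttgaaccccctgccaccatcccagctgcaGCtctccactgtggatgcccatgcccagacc

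The exon holds 105 bases, or 35 codons, of the 1287 coding bases of that transcript, and 207 coding bases precede it. Both numbers are multiples of a codon, so joining exon 1 to exon 3 keeps the reading frame. The annotation lists 10 Foxp3 transcripts, of which 8 contain exon 2. Transcript Foxp3-208 contains exon 3 without exon 2 and so holds the joined sequence printed above, while the remaining transcript contains neither of these exons. The deposited counts are per gene and do not separate these transcripts.

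Foxp3 was the member with the most reads in both libraries and the only member whose level differed by 2-fold or more. The gene (ENSMUSG00000039521, chromosome X, 7579676 to 7595243) gave 6991 reads in WT against 20946 in Exon2KO. Expressed as CPM, reads as a rate of the TMM-scaled library total, its level was 445 in WT and 1310 in Exon2KO. The log2 ratio of Exon2KO over WT was 1.56 (95% counting interval 1.52 to 1.60), a 2.94-fold higher level. A gene was called when it differed at least 2-fold with a counting interval that excluded 0, and 8.14% of the 17363 genes tested (10 or more reads, both libraries added) were called higher in Exon2KO by this rule. A log2 ratio at least as high as that of Foxp3 was found for 832 genes (4.79%), so the value lay in the upper part of the range. That share is over all tested genes, including those with few reads, whose ratios vary more by counting error. Genes with as many reads as Foxp3 were not compared. Exon 2 makes up 2.63% of the deposited length of the gene, and a count over the whole gene does not check the genotype label.

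The authors' deposited table gives Foxp3 a log2 fold change of 1.56 with an adjusted p-value of 0.00773, from a test whose tool is not stated for that column. With 1 library per genotype, that p-value cannot rest on a spread measured within a genotype. How firm the difference is depends on the spread between samples, which was not measured. An assumed biological coefficient of variation (BCV, how much samples of 1 genotype vary relative to their mean) of 0.2 widened the 95% interval of the Foxp3 log2 ratio to 0.76 to 2.36, and Foxp3 stayed called higher, as were 7.41% of all genes. Assuming 0.4 widened it to -0.04 to 3.16, and Foxp3 was then no longer called, while 3.58% of all genes were still called higher.

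Per gene length, Foxp3 also had the highest level of the 10 genes in both libraries. Its deposited FPKM (reads per length of gene, adjusted for library size) was 111 in WT and 330 in Exon2KO, which moved its rank among all loci from 616 to 171. It made up 56.0% of the summed FPKM of the 10 genes in WT and 77.0% in Exon2KO. The sum over the other 9 genes was 87.5 FPKM in WT and 98.3 in Exon2KO, so most of the added forkhead signal was Foxp3. The T cell identity genes did not move in the same way: of 13, 11 had ratios below 0, down to -1.045 for Cd5, and the list median was -0.30. Cd4 and Cd3e were the 2 with ratios above 0, at 0.20 (0.14 to 0.26) and 0.003 (-0.05 to 0.06). The ratio of Foxp3 to Cd4 in FPKM was 1.54 in WT and 3.94 in Exon2KO, and that of Foxp3 to Cd3e was 1.39 and 4.07. In bulk RNA, a change in the number of cells of a type and a change in RNA per cell cannot be told apart.

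**Figure D1:**
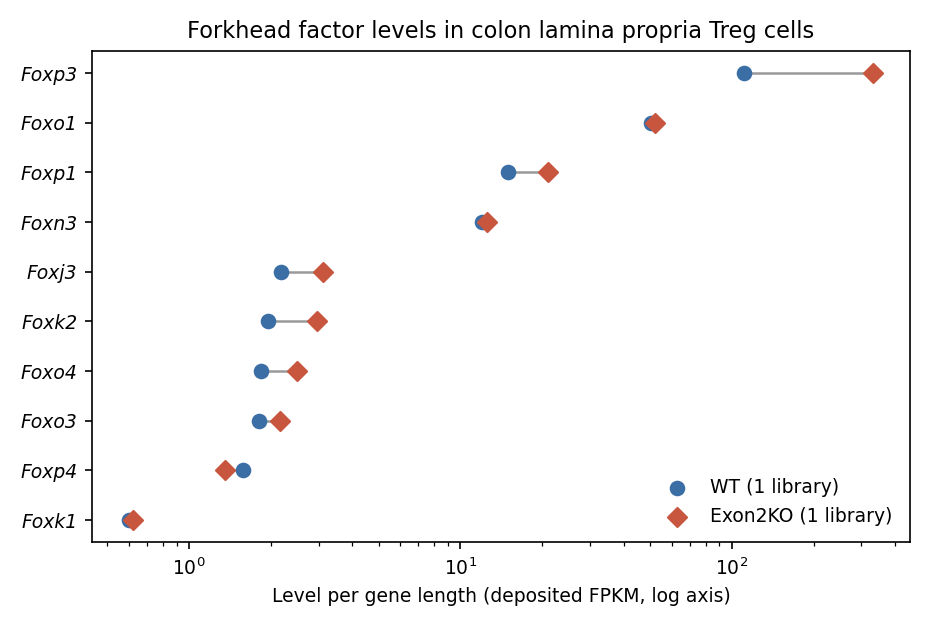
Level of each forkhead gene per gene length (deposited FPKM, log axis) in the WT library (circles) and the Exon2KO library (diamonds), 1 library each, with no error between samples. Foxp3 lies at 111 and 330, Foxo1 at 50.5 and 52.1, and the order of the 10 genes by level is the same in both libraries.

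The 5 genes that overlap Foxp3 or lie near it had ratios above 0, as 50.3% of all genes did, and 2 of them were called higher, against 8.14% of all genes. The non-coding RNA gene Flicr, which lies on the same strand and shares 853 exonic bases with Foxp3 in GENCODE M21, had 426 and 573 reads in WT and Exon2KO and a log2 ratio of 0.40 (0.22 to 0.58). Ccdc22, on the opposite strand with 590 shared bases, had 19 and 35 reads (0.79, 0.01 to 1.74). Gm36995, also on the opposite strand with 373 shared bases, had 21 and 55 reads and was called higher, at 1.28 (0.61 to 2.16). The use of strand in counting is not given in the sources used here, so reads in shared sequence cannot be assigned with certainty. Within 20 kb but without overlap in the deposited coordinates lay Ppp1r3f, which shares 266 exonic bases with a longer Foxp3 transcript of GENCODE M21, with 534 and 695 reads (0.35, 0.19 to 0.52), and Cacna1f, a calcium channel gene that starts 11840 bases beyond the end of Foxp3. Cacna1f had 92 and 246 reads and was called higher, at 1.37 (1.04 to 1.75). Both were named after their values were seen. The counting intervals of Cacna1f, Gm36995 and Ccdc22 include the Foxp3 ratio of 1.56, while those of Flicr and Ppp1r3f lie below it. The counts of the 3 overlapping genes were between 19 and 573 reads, far below those of Foxp3.

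**Figure D2:**
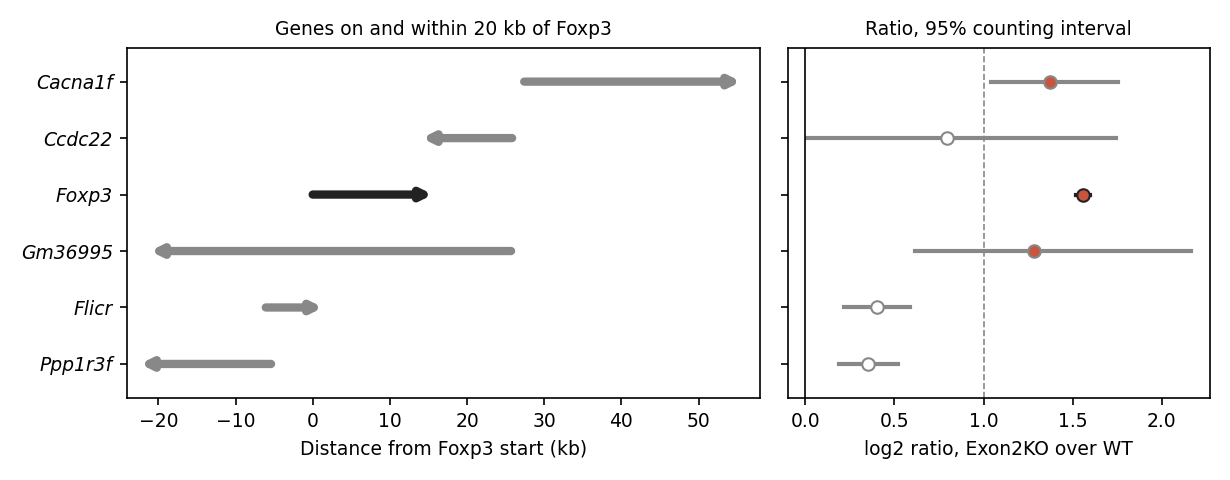
Left, positions of Foxp3 (black) and the other genes on it or within 20 kb, as distance from the start of Foxp3 in kb, with arrows in the direction of transcription. Right, their log2 ratios (Exon2KO over WT) with 95% counting intervals, filled where called, and a dashed line at the 2-fold threshold; Foxp3, Cacna1f and Gm36995 lie beyond it.

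Foxp1, which keeps naive T cells quiescent and supports Foxp3 binding in Treg cells, was moderately higher in Exon2KO. The gene (chromosome 6, 98925338 to 99522721) counted 3250 reads in WT against 4586 in Exon2KO, or 207 and 287 CPM. Its log2 ratio was 0.47 (0.41 to 0.53), a 1.39-fold difference that was larger than counting error but short of 2-fold. Foxp4 (chromosome 17, 47867133 to 47924645) had 123 and 106 reads and was the only 1 of the 10 genes with a ratio below 0, at -0.24 (-0.63 to 0.15). That interval includes 0, so a difference in Foxp4 was not detectable at this depth. In FPKM, Foxp1 exceeded Foxp4 by 9.47-fold in WT and 15.5-fold in Exon2KO. A predicted gene on the same strand, Gm20696, overlaps Foxp1 and shares 300 exonic bases with it. It was called higher, with 62 reads in WT and 224 in Exon2KO (1.79, 1.42 to 2.26), and it was named after its values were seen. Its counts are small beside those of Foxp1, whose own count could be uncertain by reads in the shared bases.

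The Foxo genes showed little difference in total. Foxo1 (chromosome 3, 52268336 to 52353221), the main Foxo protein of T cells, had nearly equal counts, 6902 and 7186 reads or 439.8 and 449.5 CPM. Its log2 ratio was 0.03 (-0.02 to 0.08), a narrow counting interval that does not cover the choice of scaling. Over the scalings, prior counts and deposited FPKM the ratio ranged from 0.03 to 0.137, with the upper value, from total counts, beyond that interval. Foxo3 (chromosome 10, 42181841 to 42276755) had 216 and 261 reads (0.24, -0.02 to 0.51). Foxo4 (chromosome X, 101254528 to 101260873) had 101 and 138 reads (0.42, 0.04 to 0.81), just beyond counting error. Summed over the 3 Foxo genes, the reads were 7219 and 7585, for a log2 ratio of 0.045 (-0.002 to 0.091). Per gene length Foxo1 exceeded Foxo3 by 27.9-fold in WT and 24.1-fold in Exon2KO. The ratio of Foxp3 to Foxo1 in FPKM was 2.20 in WT and 6.33 in Exon2KO.

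The Foxk proteins, which repress autophagy genes and recruit the Sin3 and BAP1 complexes, were expressed at low levels. Foxk2 (chromosome 11, 121259990 to 121309896) counted 162 reads in WT against 248 in Exon2KO, or 10.3 and 15.5 CPM. Its log2 ratio of 0.58 (0.30 to 0.88) was the highest of the 10 genes after Foxp3. Foxk1 (chromosome 5, 142401497 to 142462011) had 72 and 75 reads (0.03, -0.45 to 0.52), a wide interval that overlaps that of Foxk2, and the difference between the paralogs was not tested. Of the remaining members, Foxj3 (chromosome 4, 119537004 to 119629119) had 376 and 544 reads (0.50, 0.31 to 0.70). Foxn3 (chromosome 12, 99190078 to 99563582), a transcriptional repressor first described as a checkpoint suppressor, had 2182 and 2292 reads (0.04, -0.04 to 0.13).

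By counting error alone and with TMM scaling, the 10 genes fell into those that were higher in Exon2KO and those that could not be told from equal. The counting interval lay above 0 for 5 of the 10 (Foxp3, Foxp1, Foxo4, Foxk2 and Foxj3), included 0 for 5 and lay below 0 for 0. These intervals do not cover the choice of scaling. With total counts the ratios of Foxo1, Foxo3 and Foxn3 were 0.137, 0.349 and 0.150, and intervals under that scaling are not reported here. Among all genes tested, the interval lay above 0 for 22.8% and below 0 for 24.6%. Intervals narrow as reads rise, so such shares depend on depth, here and in the lists below. Genes of like depth were not compared. The log2 ratio was above 0 for 9 of the 10, against 50.3% of all genes tested, and the median was 0.33 against 0.0035. Without Foxp3, the median of the other 9 was 0.24, and their folds ranged from 0.848 (Foxp4) to 1.497 (Foxk2). These genes were listed with results of these libraries known, so the counts describe them and are no test of the family. With an assumed BCV of 0.2 the intervals of Foxp1, Foxo4, Foxk2 and Foxj3 also included 0. The authors' deposited table gives the 9 genes adjusted p-values of 0.735 to 1, likewise without a spread measured within a genotype.

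**Figure D3:**
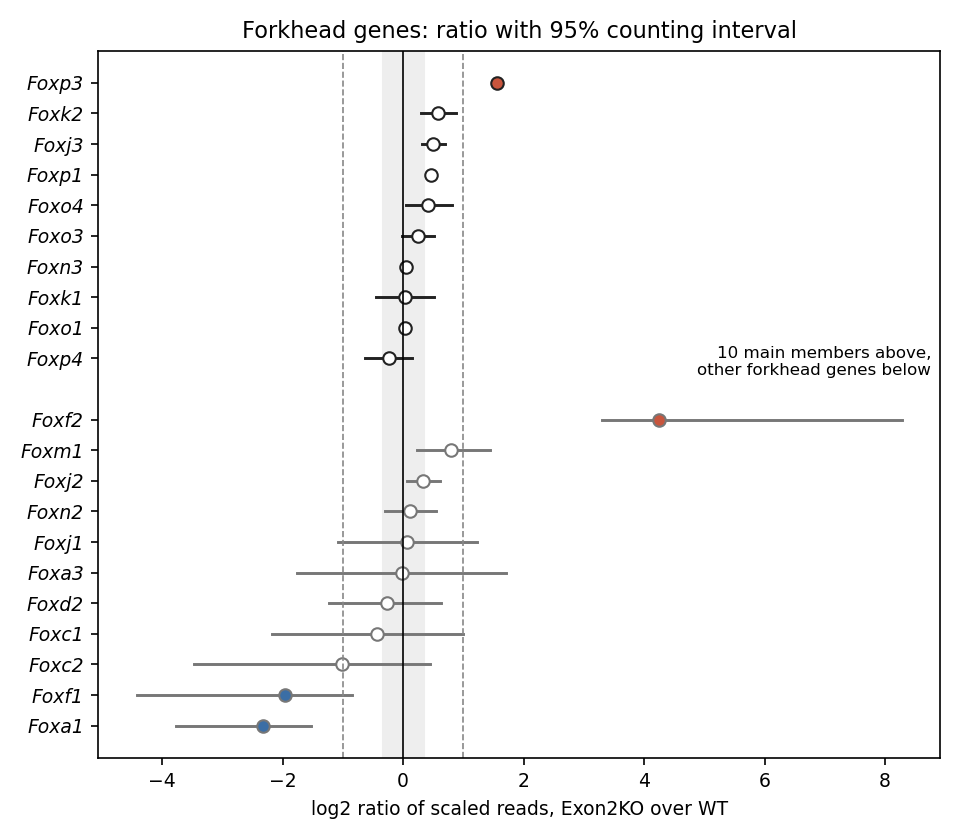
Log2 ratios (Exon2KO over WT) of the 10 forkhead members and of the 11 other forkhead genes with at least 10 reads, with 95% counting intervals. Filled points were called, the dashed lines mark 2-fold, and the grey band is the interquartile range of all genes tested (-0.33 to 0.35 on the log2 scale). Foxp3, Foxf2, Foxf1 and Foxa1 are the called genes.

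The order of the 10 genes by FPKM was the same in both libraries: Foxp3, Foxo1, Foxp1, Foxn3, Foxj3, Foxk2, Foxo4, Foxo3, Foxp4 and Foxk1. The steps between Foxp3, Foxo1, Foxp1, Foxn3 and Foxj3 were larger than counting error in each library. From Foxj3 down to Foxo3 no gene exceeded the next beyond counting error, with levels of 1.81 to 2.17 FPKM in WT and 2.17 to 3.12 in Exon2KO. Foxo3 stood above Foxp4 beyond counting error in Exon2KO (2.17 against 1.35 FPKM) and not in WT (1.81 against 1.58). Foxk1 was the lowest, at 0.602 and 0.622 FPKM.

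Of the other 34 forkhead genes, 11 had enough reads to be tested, of which 1 was called higher and 2 lower, against 8.14% and 7.12% of all genes. Foxa1, a factor of endodermal epithelium, had 52 reads in WT and 9 in Exon2KO and was called lower (-2.32, -3.76 to -1.52). Foxf1, a factor of gut mesenchyme, had 21 and 4 reads and was called lower (-1.96, -4.42 to -0.85), a call lost with a minimum of 50 reads. Foxf2, a paralog of Foxf1 found in the same tissue layer, had 2 reads in WT and 75 in Exon2KO and was called higher, with a counting interval of 3.30 to 8.27 for its log2 ratio. These 2 paralogs thus differed in opposite directions, each on few reads. Foxm1, a cell cycle factor, had 37 and 67 reads (0.80, 0.23 to 1.45) and Foxj2 had 206 and 266 (0.34, 0.07 to 0.61). For Foxn2, Foxd2, Foxj1, Foxc1, Foxc2 and Foxa3 the interval included 0. The other 23 genes had fewer than 10 reads, and 11 of them had 0 in both libraries, which allows a level of up to 0.191 CPM in WT and 0.188 in Exon2KO (3 reads).

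Marker genes of other cells were measured beside these values. Of the 15 epithelial markers, 11 were called higher and 0 lower, against 8.14% and 7.12% of all genes, and their summed level was 99.4 CPM in WT and 501 in Exon2KO, with Fabp2 at 0 reads in WT. Epcam and Muc2 went the other way, at -0.39 (-0.54 to -0.23) and -0.93 (-1.82 to -0.20). The 10 markers of stroma and endothelium summed to 76.4 and 72.3 CPM, with 3 called higher and 0 lower among the 9 tested and Cdh5 at 0 in WT; with a minimum of 50 reads 0 of these were called. The 10 B and plasma cell markers summed to 62800 and 53400 CPM (1 called higher and 3 lower). The 10 myeloid markers summed to 39.8 and 49.7 CPM, with 0 called of 4 tested, or 1 called higher with no read minimum. The 9 CD8 and NK cell markers summed to 3200 and 4050 CPM (1 higher and 3 lower of 8, or 0 and 2 with a minimum of 50 reads). Gzmb made up most of that last sum, with 2772 and 3981 CPM, while Gzma was at 328 and 10.3 CPM and the list median was -0.60. At 0 were Itgax, S100a8, S100a9 and Mrc1 in WT, Itgax in Exon2KO, Ncr1 in WT and Eomes in Exon2KO. Some genes of the labelled cell type had reads in both libraries: Il2ra had 2968 in WT and 2370 in Exon2KO and Ctla4 79358 and 132229, beside Foxp3 and Cd4. Il2ra and Ctla4 are 2 of 15 listed genes raised by Foxp3, of which 0 were called higher and 8 lower. The purity of the cells was not tested. The 13 T cell identity genes were all detected, 11 of them with a ratio below 0, and summed to 8510 and 6480 CPM. The part of these cells in the forkhead values was not tested.

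Of 30 genes for proteins that bind or modify Foxp3, all with at least 10 reads, 2 were called higher and 5 lower, against 8.14% and 7.12% of all genes, and the median log2 ratio was -0.02. The counting interval lay above 0 for 11 and below 0 for 13, against 22.8% and 24.6% of all genes. Among those called higher was Ikzf3, which encodes Aiolos (4179 and 8987 reads, 1.08, 1.03 to 1.13). Rora, which encodes the RORα contacted through exon 2, had 19059 and 10568 reads and a ratio of -0.88 (-0.91 to -0.84), lower beyond counting error but short of 2-fold. Called lower were the Ikaros family genes Ikzf2 (-4.29) and Ikzf4 (-2.09), Gata3 (-2.51), Lef1 (-2.21) and the deacetylase gene Hdac9 (-1.51, on 40 and 13 reads). Runx1 and Cbfb, the subunits of a complex that binds Foxp3, were at 0.31 (0.23 to 0.40) and -0.01 (-0.15 to 0.13).

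Among 24 regulators of the Foxp3 locus, 0 were called higher and 1 lower, against 8.14% and 7.12% of all genes, with a median of -0.02. The gene called lower was Nr4a2, an orphan nuclear receptor gene, with 2130 reads in WT and 229 in Exon2KO (-3.23, -3.45 to -3.05). Its paralogs Nr4a1 and Nr4a3 were at -0.64 (-0.68 to -0.60) and -0.02 (-0.12 to 0.08). Rel, which encodes c-Rel, was at -0.95 and Stat5a, which acts below the IL-2 receptor, at -0.78, both short of 2-fold. Il2rb was at 0.44 and Tet2, a DNA demethylase gene, at 0.42. No gene of this list was thus higher by as much as Foxp3 itself.

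Among 15 genes known to be raised by Foxp3, 11 had ratios below 0 while Foxp3 itself was higher. By the 2-fold rule 0 were called higher and 8 lower, against 8.14% and 7.12% of all genes, and the median was -1.38. Those called lower were Ikzf2, Cd83 (14958 reads in WT and 1518 in Exon2KO, -3.33), Nrp1 (-2.45), Lrrc32, which encodes the TGF-beta docking receptor GARP (2496 and 526 reads, -2.27), Ikzf4, Gpr83 (-1.82), Tnfrsf18 (-1.59) and Tnfrsf4 (-1.38, -1.40 to -1.35). Ctla4, in contrast, was at 0.71 (0.70 to 0.72) and Icos at 0.43 (0.41 to 0.45). Of the 7 genes Foxp3 is known to repress, 6 had enough reads, and 2 were called higher, against 8.14% of all genes: Il17a (5.94) and Pde3b, a phosphodiesterase gene kept low by Foxp3 in Treg cells (158 and 423 reads, 1.38, 1.13 to 1.67). Satb1 was at -0.55 (-0.60 to -0.51) and Ifng at -0.12 (-0.57 to 0.32). Il2 had 1 read in WT and 6 in Exon2KO. These lists were written with earlier results of these libraries known, and their directions are no independent evidence.

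Most Foxo target genes had ratios below 0, while Foxo1 itself was nearly equal. Of 29 with enough reads out of 30, 0 were called higher and 4 lower, against 8.14% and 7.12% of all genes, 24 had a ratio below 0, and the counting interval lay below 0 for 20, against 24.6% of all genes. That last share includes genes with few reads, whose intervals are wider. The median was -0.32 against 0.0035 over all genes. The called genes included Tnfsf10, which encodes the death ligand TRAIL (108 reads in WT and 26 in Exon2KO, -2.00, -2.76 to -1.45), S1pr1, the receptor for egress from lymphoid tissue (1364 and 462 reads, -1.58, -1.74 to -1.44), and Klf2, which drives S1pr1 (2157 and 1036 reads, -1.08, -1.19 to -0.98), whose call was lost with scaling by total counts, which left 3. Sesn1 was at -0.98 and Ccr7 at -0.72, while Il7r, also a Foxo1 target, was at 0.39 (0.33 to 0.46). The T cell identity genes had a similar median, -0.30, and the part of T cell content in the Foxo target values was not tested.

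Few genes of the PI3K and AKT pathway and other Foxo regulators reached 2-fold. Of 32, 1 was called higher and 1 lower, against 8.14% and 7.12% of all genes, with a median of -0.04. The counting interval lay above 0 for 8 and below 0 for 12, against 22.8% and 24.6% of all genes. Phlpp1, a phosphatase that removes an activating phosphate from AKT, had 1935 reads in WT and 385 in Exon2KO (-2.35, -2.52 to -2.20). Skp2, a ubiquitin ligase subunit that targets Foxo1, was called higher on 12 and 28 reads (1.08, 0.17 to 2.31). That call was lost with a prior count of 8 and with a minimum of 50 reads. The kinase genes Akt1 and Akt2 were at -0.12 (-0.24 to 0.003) and -0.05 (-0.16 to 0.07). Among 17 corepressor partners of the Foxk proteins and of Foxp1 and Foxp4, 0 were called in either direction, against 8.14% higher and 7.12% lower among all genes, and the median was 0.002. The members of this list with the most reads, Sin3b and Hdac1, were at -0.17 (-0.23 to -0.12) and -0.54 (-0.62 to -0.45).

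**Figure D4:**
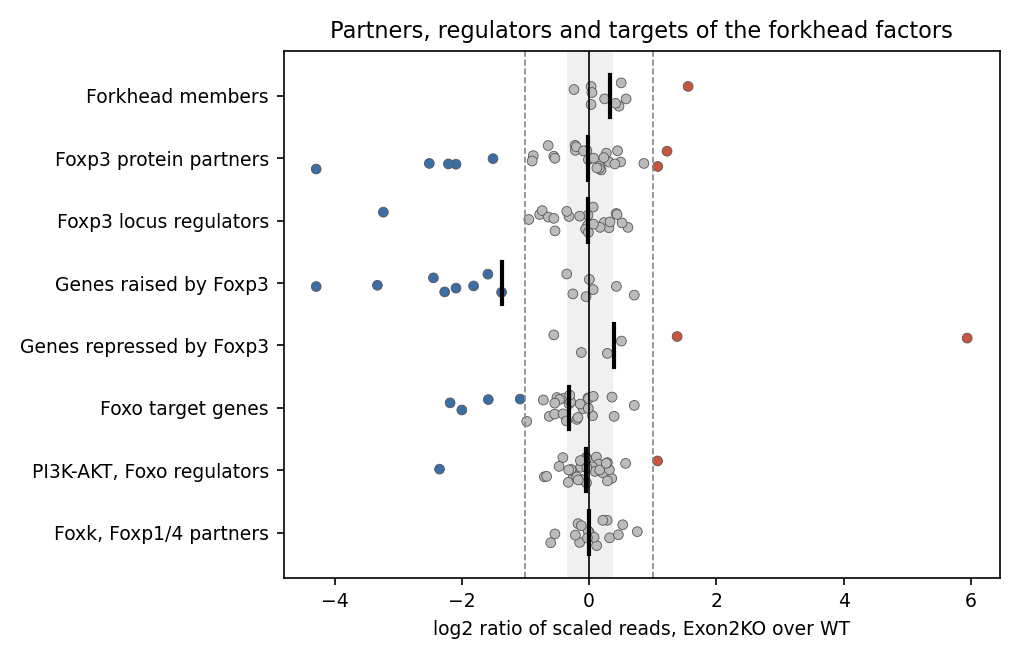
Log2 ratios (Exon2KO over WT) of the genes in each list with at least 10 reads, 1 point per gene, with red points called higher, blue points called lower, black bars at list medians and the grey band as the interquartile range of all genes tested. The medians of the genes raised by Foxp3 (-1.38) and the Foxo targets (-0.32) lie to the left. Those of the genes repressed by Foxp3 (0.40) and the forkhead members (0.33) lie to the right. The medians of the Foxo targets and the members are inside the grey band.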

How the data were processed

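Raw gene counts and FPKM were deposited by the authors for 1 WT and 1 Exon2KO library (16281133 and 15412425 reads). The deposited table also holds a scaled count signal, not used here, and a log2 fold change with its p-value, raw and adjusted, copied where named. HISAT2 2.0.5, StringTie 1.3.3b, featureCounts 1.5.0-p3, DESeq2 1.16.1 and build mm10 are named, without role, per the submitters' processing notes. Counts were scaled with TMM (edgeR 4.0.16, R 4.3.3; factors 0.964 and 1.04). Log2 ratios carry a prior count of 2, and intervals are 95% Clopper-Pearson limits of the share of reads, without the prior count. Genes reaching 10 reads in the 2 libraries together were compared; no test between genotypes was possible. The code was tested on simulated data. Alternatives changed the scaling (DESeq2 1.42.0 size factors among them), prior count, read minimum, fold threshold and assumed spread. Named genes are the members, other forkhead genes with enough reads, called genes of each list or otherwise its 2 with most reads, and genes overlapping Foxp3; further genes were added after their values were seen. The members and lists were chosen with earlier results of these data known. Some lists share genes: 9 Foxp3 partners, 4 locus regulators, 4 genes raised by Foxp3 and 4 Foxo regulators are in another list. Some called or listed genes are counted but not reported here by name. Python 3.11.15 with scipy 1.17.1 was used.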

Additional observations from a re-analysis of the deposited data

How the results depend on the processing

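The Foxp3 log2 ratio ranged from 1.555 to 1.662 over the scalings, prior counts and the deposited FPKM, and each of the 10 forkhead genes kept its direction in them. Under an assumed BCV of 0.4 Foxp3 was no longer called, at a ratio of 1.556, which left 0 members called higher, as did a fold threshold of 4. Over all genes, 1414 were called higher and 1236 lower. An assumed BCV of 0.4 left 621 and 553, a minimum of 50 reads 649 and 685, and a fold threshold of 4 left 499 and 408, while a threshold of 1.5 gave 2098 and 2020, as those settings imply. Total counts moved the median of all genes from 0.0035 to 0.1085. With them the medians of the other forkhead genes (0.062), Foxp3 partners (0.083), locus regulators (0.087) and Foxo regulators (0.062), all near 0, changed sign, as the shift implies, and the Foxo target median was -0.21. A minimum of 50 reads changed the sign for other forkhead genes (0.339) and stromal markers (-0.163, with all 3 calls lost), since fewer genes were left. No paired analysis was possible because there is only 1 library per genotype. Depth limits the forkhead genes with few reads, 23 of which had fewer than 10.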
